A study of Macaca mulatta with 6 samples.

Results

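The first of the digest comparisons made in haploid embryonic stem cells (ESC) of the rhesus macaque, Macaca mulatta, was described here by its signal levels. The members are all 1317975 CCGG sites that the authors' table of haploid ESC lists on chromosomes 1 to 20, of 1366982 sites in that table and 2664374 entries in the tables of haploid ESC and sperm together. They were taken by chromosome alone, and every one of them had a summed signal above 0. The series title gives the haploid ESC as parthenogenetic, which means that they come from an egg and carry no paternal genome, and sets them beside sperm. Genomic DNA of each cell type was cut in 3 digests, HpaII, BGT_MspI and MspI, with 1 library per digest and cell type and 6 libraries in all. There are no replicates, so no difference below has a replicate error, and none was tested. The labels name no animal, passage or line, and the table holds no genes with which the cell type could be checked.

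HpaII and MspI recognise the same sequence, CCGG. HpaII fails to cut when the inner cytosine is methylated, while MspI cuts methylated and unmethylated sites alike. A glucosyltransferase, to which the label BGT points, adds glucose to hydroxymethylated cytosine and so shields that base from MspI. In mammalian DNA most cytosines next to a guanine are methylated, except in stretches dense in such pairs, called CpG islands, which often lie at promoters. Imprinted regions carry methylation on the allele of a single parent.

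The table does not say which digest a column holds. In all 1317975 rows the column that closes the first pair was repeated, value for value, as the column that opens the second pair. The table therefore holds 3 different signals for 3 libraries, called here the first, the second and the third signal, and the first pair sets the first signal against the second. The second and the third signals ranked the sites nearly alike (Spearman's rho = 0.88 across sites), and the first signal stood apart from both (rho = 0.38 and 0.39). Sites are not independent replicates, so these values describe the table only. No column header, label or other source used here names the columns. For that reason no digest is assigned to a signal, and no value below is read as a level of methylation or hydroxymethylation.

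For each site the contrast d was computed as the first signal minus the second, divided by their sum. It runs from -1 to 1 and is positive where the first signal is the higher. The signals are in the authors' normalised units, and no source used here gives their scale. The read depth behind a site is unknown for the same reason. The 2 signals had similar medians, 18.3 for the first and 17.9 for the second, but not the same sum: the first signal summed to 38668233 and the second to 31287915. Bringing both to 1 sum moved the median of d by -0.11, so the sign of d has no fixed meaning. Classes of sites are compared below with one another and with all sites. Signs and cut-offs of d are those of the signals as deposited unless 1 sum is named.

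The contrast was broad and centred near 0. Its median was 0.012, with quartiles at -0.32 and 0.36, and 5% of sites lay below -0.69 and 5% above 0.71. The first signal was the higher at 51.1% of sites as deposited (95% Wilson interval 51.01% to 51.18%), but the median of d fell to -0.094 with both signals brought to 1 sum. A d above 0.5, where the first signal is more than 3 times the second, was found at 16.1% of sites (15.99% to 16.11%), and a d below -0.5 at 13.4% (13.3% to 13.4%). The intervals cover counting of sites only, and neighbouring sites are not independent. With both signals brought to 1 sum the order of these shares turned, with 11.6% of sites above 0.5 and 18.4% below -0.5.

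For comparison, the second pair of the same table, which sets the second signal against the third, gave a narrow d. Its quartiles were -0.13 and 0.12, and 0.9996% of sites lay above 0.5 and 1.14% below -0.5. The interquartile range of the first pair was 2.73 times as wide. Both pairs contain the second signal. In sperm the first pair was wider still, with quartiles at -0.39 and 0.41 and with 20.7% of its 1254904 sites above 0.5 and 17.7% below -0.5.

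**Figure D1:**
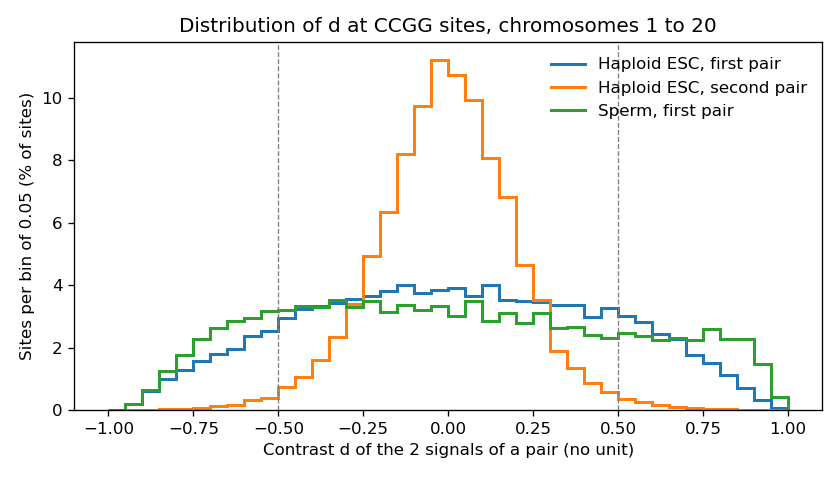
Share of CCGG sites on chromosomes 1 to 20 (percent, vertical axis) in bins of 0.05 of d (horizontal axis, no unit) for the first and second pair in haploid ESC and the first pair in sperm, with dashed lines at -0.5 and 0.5. The first pair of haploid ESC is spread from below -0.69 to above 0.71 at its outer 5%, whereas the second pair is concentrated between -0.34 and 0.32.

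The upper tails of the signals differed. The first signal exceeded 100 at 68120 sites (5.17%), the second at 14781 (1.12%) and the third at 14323 (1.09%). The 95th percentile of the first signal was 102, against 60.7 and 61.0 for the second and the third. Sites with a first signal over 100 had a median d of 0.64. Sites with a second signal over 100 had a median d of -0.39. Only 3697 sites exceeded 100 in both, and their median d was -0.00039. These tails contain the values that make up d, so they describe where its extremes lie and are no separate finding.

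By summed signal of the pair, d was lowest in the classes from 10 to 40 and high above 80; 3 of 8 classes kept a median above 0 with both signals brought to 1 sum. The median d was 0.0067 at a sum of 5 to 10, -0.10 at 10 to 20, -0.042 at 20 to 40 and 0.013 at 40 to 80. It was 0.20 at 80 to 160 and 0.53 at 160 to 320, where 53.8% of 46729 sites lay above 0.5 and 4.19% below -0.5. At 4228 sites with a sum over 320 it was 0.39. At a sum of up to 5, 17.3% of 15186 sites were above 0.5 and 0% below -0.5. A d below -0.5 at such a sum needs a first signal below 1.3, and the 3004 sites with one share 3 values of d. The 0% is thus limited by the lowest values of the first signal. The sum contains both signals that make up d, so these classes describe where high and low d lie and are no separate finding. The spread of d did not shrink steadily with the sum: its interquartile range was 0.72 at 10 to 20, 0.60 at 40 to 80 and 0.78 at 80 to 160. That of the second pair fell from 0.32 to 0.22 and 0.21 over the same classes. At 160 to 320 the first pair was at its narrowest, 0.41, and the second pair was at 0.19.

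The lowest values repeat. At 1401 sites the first signal was 1.002, the lowest in the set, and there the second and the third signals were also fixed, at 0.9998 and 0.9965. All 3004 sites with a first signal below 1.3 shared 3 values of d among them. No site had a signal of 0. No source used here names the step that gave these values, and they limit what d can show at the lowest signals.

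The level of d depended on the distance to the nearest listed site. The median d was 0.070 for 63893 sites with a neighbour within 50 bp, 0.052 at 51 to 200 bp, 0.11 at 201 to 500 bp and 0.070 at 501 to 1000 bp. It then fell to -0.075 at 1001 to 2000 bp, -0.22 at 2001 to 5000 bp and -0.30 for the 27900 sites with no listed neighbour within 5000 bp. From 201 to 500 bp to over 5000 bp the difference was 0.41 (0.40 with both signals brought to 1 sum). With both signals brought to 1 sum, 1 of these 7 classes kept a median above 0, that at 201 to 500 bp (0.0034), and the medians still fell from -0.036 at 501 to 1000 bp to -0.39 beyond 5000 bp.

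Both signals took part in this. From 201 to 500 bp to over 5000 bp the median first signal went from 19.5 down to 15.7, and the median second signal from 15.7 up to 28.8. The third signal followed the second, from 15.9 to 28.6. Among isolated sites 27.6% had a d below -0.5 and 6.12% a d above 0.5, against 10.1% and 20.1% at 201 to 500 bp. The second pair hardly moved: its median d lay between -0.019 and 0.0077 over the 7 classes. Depth and repeat content were not available, and their part in this was not tested. The length of the fragments between sites cannot be told apart here from the distance between listed sites.

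**Figure D2:**
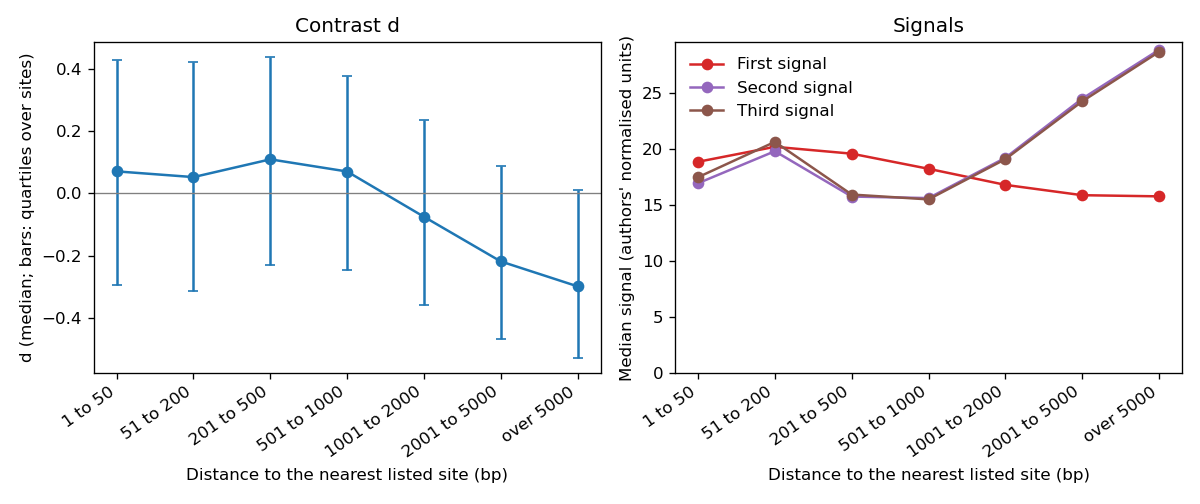
Median d (left; bars from the lower to the upper quartile over sites, no unit) and median of the 3 signals (right; authors' normalised units) against the distance to the nearest listed site in bp, haploid ESC. Beyond 1000 bp the second and the third signals rise together to over 28 while the first signal falls to 15.7, and the median d drops to -0.30. With both signals brought to 1 sum, 1 of the 7 medians lies above 0.

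The distance to the farther neighbour separated the sites as well. With the farther neighbour at 501 to 1000 bp, the median d was 0.22 for a nearer neighbour within 50 bp, 0.19 at 51 to 200 bp, 0.22 at 201 to 500 bp and 0.22 at 501 to 1000 bp. Sites with both neighbours at 51 to 200 bp had a median of -0.093, below the value for all sites. With the nearer neighbour held at 51 to 200 bp, the median ran from -0.093 through 0.12, 0.19, 0.065 and -0.095 to -0.21 as the farther neighbour moved from 51 to 200 bp out to over 5000 bp. With the farther neighbour beyond 5000 bp it lay between -0.30 and -0.11, whatever the nearer distance. Sites with both neighbours at 201 to 500 bp also had a median of 0.22, with 26.2% of them above 0.5, and sites with both at 2001 to 5000 bp had a median of -0.19.

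In the densest stretches d was more widely spread and its median was lower. Of 1628 sites with 6 or more listed sites within 500 bp, 22.2% had a d above 0.5 and 25.1% a d below -0.5, and the interquartile range of d was 0.97. For 633986 sites with no other site within 500 bp those shares were 12.1% and 14.9%, and the interquartile range was 0.64. The median d rose from -0.056 with no site in that distance to 0.14 with 2 sites and fell again to -0.094 with 6 or more. The 95th percentile of the first signal climbed over the same classes from 73.9 to 171, and its median from 17.1 to 21.2. The second signal's median went from 18.7 over 17.0 to 28.7. In the densest class both extremes were thus more frequent than among sites with no other site within 500 bp.

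Adjacent sites had similar d over short distances. For 172722 pairs of adjacent sites at most 200 bp apart, Pearson's r of d was 0.51. It was 0.29 at 201 to 500 bp, 0.11 at 501 to 1000 bp and 0.072 at 1001 to 2000 bp. In finer classes r was 0.48 at 151 to 200 bp, 0.37 at 201 to 250 bp and 0.18 at 401 to 500 bp. After the median of each chromosome and class of spacing was taken off, r was 0.51 up to 200 bp and 0.055 at 1001 to 2000 bp. The pairs share libraries, local sequence and, where adjacent, the fragment between them, so these are descriptions with no p.

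The likeness lay in the first signal. On a log2 scale the first signal of adjacent sites up to 200 bp apart had r = 0.56, the second 0.13 and the third 0.16. The d of the second pair had r = 0.060 at that distance. In sperm the d of the first pair reached r = 0.54 up to 200 bp, and it stayed higher than in haploid ESC at 201 to 500 bp (0.40 against 0.29) and at 501 to 1000 bp (0.20 against 0.11). Lacking replicates, this gap between haploid ESC and sperm was not tested.

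Within 200 bp, high and low sites also kept apart. When a site had a d above 0.5, the next site within 200 bp was above 0.5 in 48.7% of cases and below -0.5 in 2.82%. When a site was below -0.5, the next within 200 bp was below -0.5 in 33.2% and above 0.5 in 3.90%. At 1001 to 2000 bp these shares were 22.3% and 9.67% after a high site and 12.0% and 12.8% after a low one. The background shares over all sites are 16.1% and 13.4%, and they differ with spacing. For sites with the nearest listed site at 51 to 200 bp they are 19.2% and 14.2%.

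**Figure D3:**
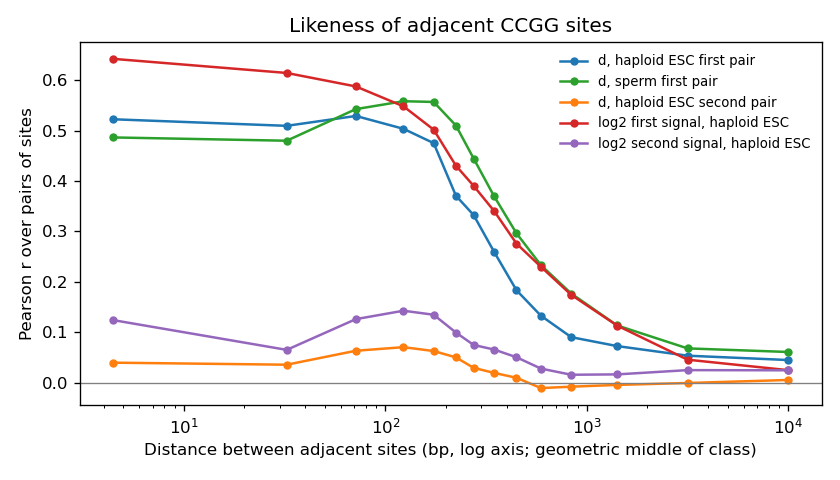
Pearson's r over pairs of adjacent sites (vertical axis) against the distance between them (bp, log axis) for d of the first pair in haploid ESC and sperm, d of the second pair, and the log2 first and second signals of haploid ESC. In haploid ESC, r of d is near 0.5 up to 200 bp and 0.072 at 1001 to 2000 bp, and that of the second pair reaches at most 0.070.

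Chromosomes differed by less than spacing classes did. Chromosome 19 had the highest median d, 0.15 over 50922 sites, which is 0.14 above the median of all sites. Chromosome 16 followed with 0.11 over 61395 sites and chromosome 10 with 0.069. Chromosome 5 had the lowest, -0.060 over 62553 sites, 0.072 below all sites, and chromosome 2 came next with -0.044. The quartiles of chromosome 19 (-0.21 and 0.47) overlapped those of chromosome 5 (-0.36 and 0.29) over most of their length. As deposited, 11 of 20 chromosomes had a median above 0, and 2 of 20 with both signals brought to 1 sum.

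The order followed how densely the sites are listed. Across the 20 chromosomes Pearson's r between median d and sites per Mb was 0.96 and Spearman's rho 0.94. Without chromosomes 16 and 19, which are farthest from the median density, r was 0.92. When the sites of every chromosome were weighted to the same classes of distance to both neighbours, chromosome 5 moved from -0.060 to 0.0055 and chromosome 10 from 0.069 to 0.022. Chromosome 19 kept a median of 0.12 and chromosome 16 one of 0.053. Chromosome 19 remained the highest of the 20 under this weighting, and chromosome 18 became the lowest, at -0.0051. After weighting, Spearman's rho with sites per Mb was 0.60, and the medians ran over a range of 0.13, against 0.21 as listed.

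The first signal carried the difference between chromosomes. Its median ran over a range of 5.40, from 16.6 on chromosome 5 to 22.0 on chromosome 19, while that of the second signal ran over 1.41. The median d of the second pair stayed between -0.019 and 0.0053. Chromosome 19 was the highest in the first pair of sperm too, with a median of 0.21.

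**Figure D4:**
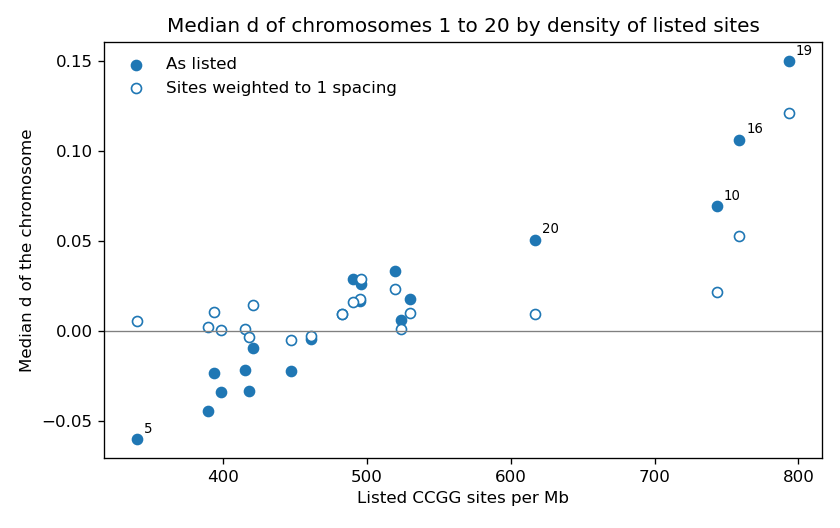
Median d of each of chromosomes 1 to 20 in haploid ESC (vertical axis, no unit) against the density of listed sites (per Mb), as listed (filled) and with sites weighted to the same spacing (open). Filled points climb with density from -0.060 on chromosome 5 to 0.15 on chromosome 19, and after weighting chromosome 19 stays apart at 0.12. With both signals brought to 1 sum, 2 of 20 medians lie above 0.

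Among windows of 10 kb with at least 10 sites, high medians were more frequent than low ones. Of the 34029 windows with at least 10 sites, which hold 35.5% of all sites, the median of window medians was 0.12, against a median of 0.012 over all sites. Medians above 0.5 were found in 2104 windows (6.18%), and medians below -0.5 in 53 (0.156%). With both signals brought to 1 sum the numbers were 722 and 196, so high windows were still the more frequent among windows with at least 10 sites. This minimum leaves out windows with few listed sites. Among sites with no listed neighbour within 5000 bp, 27.6% had a d below -0.5 and 6.12% a d above 0.5. How far the minimum sets the order of high and low windows was not tested. In the high windows the median first signal was 62.9 and the second 17.6, against 20.9 and 17.0 over all windows. In these windows, chosen for a high d, the first signal was raised and the second was close to that of all windows. In the low windows the first signal was 7.93 and the second 23.4. Both sets were chosen by d, which is made up of the same signals. These values therefore describe the chosen windows and are no separate finding.

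The highest median d was 0.78, in chr19:15470001-15480000, whose 10 sites had a median first signal of 58.2 and a median second signal of 14.7. Next came chr16:33170001-33180000 with 0.75, where the lowest of 10 sites was 0.25 and the highest 0.84. The others were chr4:3620001-3630000 with 12 sites (0.75), chr10:5190001-5200000 with 11 (0.73) and chr2:72930001-72940000 with 11 (0.72). In each of these 5 windows the sperm table also had a high median at the shared sites, from 0.59 to 0.79.

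The lowest median, -0.70, was in chr5:730001-740000, and this window differed in kind from the others. Its 11 sites had a median first signal of 122 and a median second signal of 752, with a second signal of up to 1437, far above the median of 17.9 over all sites. The third signal was as high, 793. Whether these sites lie in repeated sequence was not tested. The other 4 had low first signals: chr1:156610001-156620000 with a median d of -0.66 (3.32 against 30.6), chr13:10250001-10260000 with -0.62 (4.13 against 17.2), chr3:82220001-82230000 with -0.61 (6.64 against 23.4) and chr12:104110001-104120000 with -0.61 (6.54 against 20.4). Sperm medians in the 5 low windows ran from -0.62 to -0.24. Positions are those of the authors' table, whose genome build is not established here, so no gene is given for them.

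As deposited, runs of consecutive sites were more often long on the high side, but this order turned with the scaling. There were 2577 runs of at least 5 sites in a row with a d above 0.5 and 290 with a d below -0.5, against 723 and 932 with both signals brought to 1 sum. Runs of 10 or more numbered 87 and 1 as deposited. Most runs were single sites, 72.8% of the high and 80.9% of the low ones.

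The longest high run covered 18 sites over 16171 bp at chr3:99624255-99640425. Its d lay between 0.51 and 0.83, its first signal between 39.98 and 115 and its second between 3.73 and 36.4. The block did not end there: 38 sites within 10 kb on either side had a median d of 0.60 and a lowest d of 0.25. Of its 18 sites, all listed in sperm, 14 were above 0.5 in sperm as well. The second held 17 sites over 7645 bp at chr20:84787740-84795384, with d from 0.52 to 0.76, and 8 of its 16 sites listed in sperm were above 0.5. At 3 others sperm was below 0, with a d of -0.40, -0.62 and -0.47, the second of them below -0.5. The third held 16 sites at chr14:55658040-55668244, with d from 0.51 to 0.85 and 11 of 16 sites above 0.5 in sperm.

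The longest low run held 10 sites over 1500 bp at chr3:82154875-82156374. Its first signal ran from 1.55 to 17.7 with a median of 4.15, and its second from 6.71 to 81.3 with a median of 35.2. The d lay between -0.86 and -0.62. The next site before the run, at 82154463, had a d of -0.50, and the next after it, at 82157606, one of 0.38. The 35 sites within 10 kb on either side ranged from -0.92 to 0.51, with a median of -0.25, so other low sites lay around the run. In sperm 6 of its 9 listed sites were below -0.5 too, and 1 was above 0.5. Of all shared sites below -0.5 in haploid ESC, 49.3% were below -0.5 in sperm and 5.43% above 0.5.

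The second low run held 9 sites over 2168 bp at chr4:159444187-159446354. In haploid ESC the first signals, in order along the chromosome, were 10.8, 1.58, 1.57, 1.58, 3.15 and 4.97 at the first 6 sites and 1.57, 3.29 and 8.08 at the last 3. Those of 1.57 and 1.58 lie below 3.14, the 5th percentile of the first signal, and near its lowest value of 1.002. The lowest d of the run thus rest on values near the floor. The second signals were 46.8, 25.7, 19.4, 26.6, 9.68 and 20.3, and then 17.0, 22.0 and 31.2. Every site thus had a second signal more than 3 times its first, and d lay between -0.89 and -0.51. Within 10 kb on either side, 21 sites had a median d of 0.066 and a lowest d of -0.25, so the run stood out from its surroundings.

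In sperm the first 6 of these sites had first signals of 186, 136, 91.7, 124, 78.4 and 246, and second signals of 140, 22.8, 19.6, 38.1, 11.4 and 23.1. Their d was 0.14 at the first and between 0.53 and 0.83 at the other 5. At the next 2 sites, which lie over 1 kb further on, sperm had first signals of 6.15 and 9.08 and a d of -0.51 and -0.46, on the same side of 0 as haploid ESC (-0.83 and -0.74). The last site is not listed in sperm. The high sperm signal began before the run. At positions 159443853 and 159443983 the first signal was 206 and 164 in sperm, against 22.8 and 26.4 in haploid ESC. Among all shared sites below -0.5 in haploid ESC, 5.43% were above 0.5 in sperm. The first signals of the 2 cell types did not overlap over the first 6 sites, and the second signals did. With 1 library per digest this was not tested. The run was singled out for its low d in haploid ESC, which favours low first signals there, and not for the sperm values.

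The third low run held 8 sites spread over 36783 bp at chr5:89891781-89928563. The d ranged from -0.82 to -0.57. In sperm 4 of its 8 sites were below -0.5 and 1 was above 0.5. Among all shared sites below -0.5 in haploid ESC these shares were 49.3% and 5.43%, so 4 of 8 lies near that share.

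**Figure D5:**
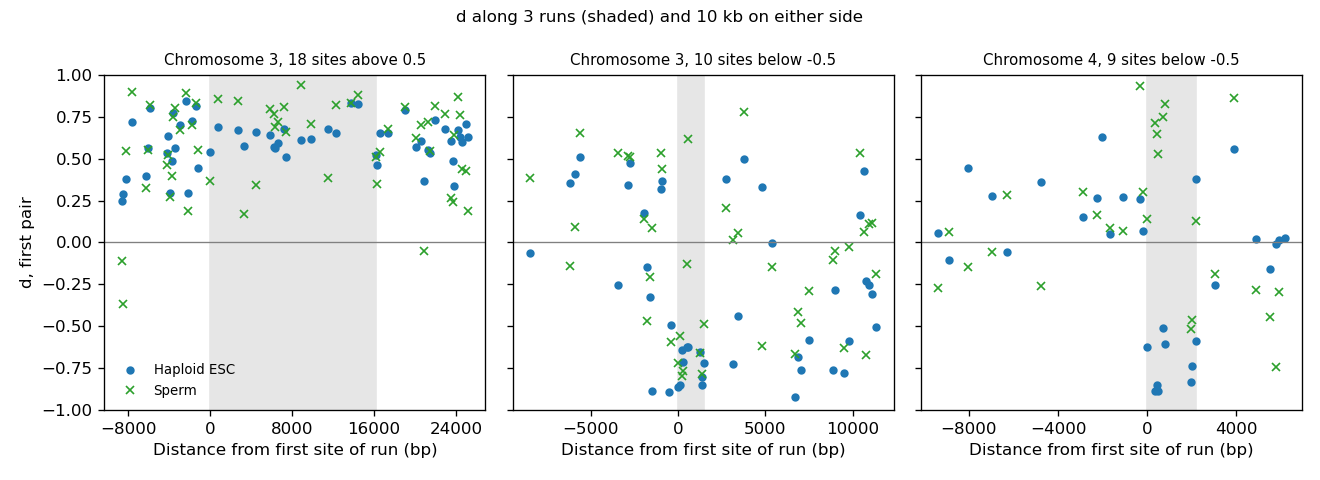
d of the first pair at each listed site (vertical axis) against the distance from the first site of the run (bp) for haploid ESC (dots) and sperm (crosses), for the longest run above 0.5 and the longest and next longest below -0.5, with each run shaded. On chromosome 4 the first 6 sites lie below -0.5 in haploid ESC and between 0.14 and 0.83 in sperm. In the high run on chromosome 3 every cross lies above 0, and in the low run there 6 of 9 crosses lie below -0.5. Of all shared sites below -0.5 in haploid ESC, 49.3% are below -0.5 in sperm.

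Over the 1215827 sites listed in both tables, the d of haploid ESC and sperm ranked alike in part, with Pearson's r and Spearman's rho both 0.54 across sites. The sign was the same at 70.4% of them. Sites above 0.5 numbered 197587 in haploid ESC and 249229 in sperm, and 103640 were above 0.5 in both, which is 52.5% of the first list and 41.6% of the second. Over all shared sites 16.3% were above 0.5 in haploid ESC and 20.5% in sperm. Sites below -0.5 in both numbered 74164, 49.3% of those in haploid ESC and 34.5% of those in sperm, where the shares over all shared sites were 12.4% and 17.7%. At opposite extremes, 6468 sites (3.27% of the high sites of haploid ESC) were above 0.5 in haploid ESC and below -0.5 in sperm, and 8164 (5.43% of its low sites) were the reverse. The comparison takes each pair to join the same digests in both tables, which no source used here states. Signs and cut-offs here and in the windows below are those of the signals as deposited, and the overlaps were not repeated with 1 sum.

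Windows gave the same picture. Of 28616 windows with at least 10 shared sites, 1903 had a median d above 0.5 in haploid ESC. The sperm median was above 0.5 in 1139 of these (59.9%), against 11.1% of all such windows, and below 0 in 53 (2.79%). Those 1139 are 35.8% of the 3185 windows above 0.5 in sperm. Of 38 windows below -0.5 in haploid ESC, 33 had a sperm median below 0 and 8 one below -0.5. Over all 28616 windows these were 39.9% and 0.381%.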

How the data were processed

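HMST-Seq libraries were sequenced on an Illumina HiSeq2000, per the labels. The authors deposited 1 table per cell type with 10 columns and no header. The labels tie each table to its 3 libraries. The values used are signal in normalised units, per the values of the deposited table, since they are not whole and none is 0. Aligner, counting, normalisation and depth were not given in the sources used here, so the precision per site is unknown. The submitters' processing notes name hg19, although the chromosomes are named 1 to 20 and X as in the macaque. Positions are given as deposited, and sequences and genes are not analysed here.

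No name ties a value column to a digest. Columns were used as signals of the cell type whose libraries the labels tie to the table, and 2 value columns, the second pair of sperm, were left out, as were the other unnamed columns. The contrast d, its quantiles, window medians and correlations were computed in Python 3.11.15 with pandas 2.3.3 and NumPy 2.4.6, on rows sorted by position. Distances are to the nearest listed site. Windows had at least 10 sites in 10 kb. The search for runs and the correlation were tested on simulated data. Regions named are the 5 highest and 5 lowest windows, the 3 longest runs on each side and the extreme chromosomes, and chromosomes 2, 10, 16 and 18 were named after their values were seen. The members and rules were chosen with earlier results of these data known. Alternatives were a minimum summed signal, 1 sum for both signals, other window rules, rank correlation, and, chosen after seeing the data, weighting to 1 spacing, removing spacing from the correlation, and 1 sum for windows and runs.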

Additional observations from a re-analysis of the deposited data

Results flagged for a closer look

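Sites outside chromosomes 1 to 20 entered no comparison above, and their signal is given here for that reason. The 48998 sites of the X chromosome had a median d of -0.051, with quartiles at -0.36 and 0.29, a median first signal of 17.8 and a median second signal of 19.5. This is as low as the lower autosomes, between chromosome 5 at -0.060 and chromosome 2 at -0.044. On X 13.6% of sites were above 0.5 and 15.3% below -0.5. The 8 mitochondrial sites had a median d of 0.29 and ranged from -0.46 to 0.49. The mitochondrial values rest on few sites, and neither was tested.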

How the results depend on the processing

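The sign of the median d, 0.012 as deposited, is set by the scaling: it was -0.094 with both signals brought to 1 sum and 0.11 when sites were weighted by signal. It was 0.013 and 0.031 at a summed signal of at least 10 and 20, and 0.010 for sites whose nearest site is over 50 bp away. The share above 0.5 was 16.7% at a summed signal of at least 20, 11.6% with 1 sum and 15.9% for sites over 50 bp from the nearest. The share below -0.5 was 13.5%, 13.3% and 12.1% at sums of at least 5, 10 and 20, and 18.4% with 1 sum. The difference in median d between 201 to 500 bp and over 5000 bp was 0.42 at a sum of at least 10 and 0.40 with 1 sum, and 1.13 as a log2 ratio with a pseudocount of 1. At a sum of at least 10, chromosome 19 stood 0.15 above and chromosome 5 at -0.079 from all sites; weighted to 1 spacing these were 0.11 and -0.0065.

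The r of adjacent sites up to 200 bp apart was 0.53 with both sums at least 10 and 0.51 by ranks. At 1001 to 2000 bp it was 0.082, 0.068 by ranks and 0.055 with spacing and chromosome removed. Windows above 0.5 numbered 5402 with at least 5 sites, 104 with at least 20, 722 with 1 sum and 2841 by summed signals, against 2104. Windows below -0.5 numbered 1206, 4 and 196, and 34 by summed signals. Runs of at least 5 sites numbered 723 above 0.5 and 932 below -0.5 with 1 sum, against 2577 and 290. The minimum number of sites changes how many windows are counted at all; the cause of the other moves was not tested. The median d of haploid ESC minus sperm was 0.025, 0.035 at shared sites and 0.034 with 1 sum. The interquartile range of the first over the second pair was 2.74 at shared sites and 2.71 with 1 sum, and of sperm over haploid ESC 1.18 and 1.17. Of 47 alternatives to 15 results, 1 turned the direction, 38 moved beyond counting error or by over 1.5 times, or had no such error to set them against, and 8 did not. Each value was scored alone. The order of high against low, which turned with 1 sum for shares of sites and for runs, is therefore counted among those that moved. No paired analysis was possible because each digest has 1 library. Unknown depth limits single sites most at low signal.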

Other observations

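Chromosome 5, lowest in median d, had the highest share of its dense windows above 0.5: 67 of 690 windows of 10 kb with at least 10 sites (9.71%), against 4.35% on chromosome 10 and 6.18% on chromosome 19. The number of such windows differs by chromosome, and the cause was not tested. In windows of 100 kb with at least 20 sites, 23838 in number, the median d rose with the number of sites listed (Spearman's rho = 0.60 across windows). The median of window medians was -0.14 with 20 to 29 sites, -0.077 with 30 to 49, 0.047 with 50 to 99, 0.12 with 100 to 149 and 0.10 with 150 or more. On this scale the densest class was thus not the highest.

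The 102148 autosomal sites listed in haploid ESC and not in sperm had a median d of -0.14 and a median summed signal of 17.2, against 0.022 and 41.7 at shared sites. The site with the largest summed signal, on chromosome 4 at position 110611915, had a first signal of 4283 and a second of 624, while the next 4 sites by summed signal had a d between -0.50 and -0.11. These sites were chosen after their values were seen.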
